A study of Mus musculus with 23 samples.

Results

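The 10 genes described here encode secreted proteins of the hepatic acute phase response and were followed in mouse liver RNA: the 4 serum amyloid A genes (Saa1, Saa2, Saa3 and Saa4), the orosomucoid genes Orm1 and Orm2, lipocalin-2 (Lcn2), haptoglobin (Hp), hemopexin (Hpx) and serum amyloid P component (Apcs). They were chosen by name as the rows of a gene count table whose Ensembl gene IDs map to these symbols. They are 10 of the 54838 genes of the table, and all 10 passed the filter on low counts, which kept 11969 genes.

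The livers came from C57BL/6J mice given a recombinant protein or vehicle. Each protein was injected at 1 µg per g of body weight, 3 times, with 1 day between injections. Batch 1 held a vehicle group (4 libraries) and LBP, lipopolysaccharide-binding protein (3 libraries, numbered 2, 3 and 4). Batch 2 held 4 libraries each of a vehicle, of FSTL3 (follistatin-like 3, which binds activins), of EPDR1 (the secreted ependymin-related protein 1) and of FCN2 (the complement-activating lectin ficolin-2). All groups carried the same strain background, and the labels give no age, sex, vehicle content or delay before the liver was taken. The labels also do not say that each library came from its own mouse, so p-values measure the spread between these libraries, which may be technical.

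In the acute phase response, cytokines released during infection or injury, above all interleukin-6 and interleukin-1, act on hepatocytes through STAT3, NF-kB and C/EBP factors, and the liver raises its output of a set of plasma proteins. Saa1 and Saa2 encode the inducible serum amyloid A proteins that circulate on high-density lipoprotein, Saa3 is a form also made outside the hepatocyte, and Saa4 is the constitutive form. Orm1 and Orm2 encode alpha-1-acid glycoproteins, which carry small lipophilic molecules. Lcn2 binds bacterial siderophores and is made by stimulated hepatocytes and by neutrophils. Hp and Hpx bind free hemoglobin and free heme, and Apcs is the pentraxin that serves as a main acute phase protein of the mouse.

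Several of these genes are near copies of each other, which bears on how reads can be told apart. Saa3, Saa4, Saa1 and Saa2 lie side by side on chromosome 7 (GRCm38). Saa1 is on the minus strand at chr7:46740497-46742980 and Saa2 is on the plus strand at chr7:46751790-46754313, so the pair starts back to back. Orm1 at chr4:63344560-63348163 and Orm2 at chr4:63362449-63365878 are likewise neighbours, both on the plus strand. Saa3 at chr7:46711998-46715700, Saa4 at chr7:46727998-46732603, Hpx at chr7:105591613-105600137, Lcn2 at chr2:32384633-32388252, Hp at chr8:109575128-109579172 and Apcs at chr1:172893961-172895041 are all on the minus strand. The counts cover the exons of each gene. The coding sequences of Saa1 and Saa2 were 95.1% identical, with 18 differing bases over 369, and those of Orm1 and Orm2 were 89.9% identical. Saa1 and Saa3 were 76.1% identical, and Saa1 and Saa4 65.2%. The stretch of coding bases 121 to 300 of Saa1 and Saa2 from GENCODE M21, which holds 12 of the 18 differences, shows what separates their reads. Capitals mark the bases that differ.
Saa1: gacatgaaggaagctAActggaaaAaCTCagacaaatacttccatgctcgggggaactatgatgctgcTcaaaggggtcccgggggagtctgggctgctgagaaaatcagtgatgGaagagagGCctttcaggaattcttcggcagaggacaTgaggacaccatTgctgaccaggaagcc
Saa2: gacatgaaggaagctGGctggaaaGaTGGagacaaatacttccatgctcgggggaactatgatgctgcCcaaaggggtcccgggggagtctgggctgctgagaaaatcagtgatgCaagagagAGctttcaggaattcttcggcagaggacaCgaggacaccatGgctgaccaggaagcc

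Of the 50-base windows of the Saa1 transcript, 14.8% also occurred in a transcript of another gene, and 13.3% of those of Saa2 did. The shares were 20.4% for Orm1, 22.7% for Orm2, 1.78% for Saa3 and 1.37% for Saa4. No window of Lcn2, Hp, Hpx or Apcs was shared. Values of Saa1 against Saa2 and of Orm1 against Orm2 are therefore uncertain to the extent that reads could be assigned to the wrong copy or dropped.

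The likeness of Saa1 and Saa2 extended upstream. In the RefSeq promoter windows (GRCm38.p6, 8 of the 10 genes matched), the 250 bases before the start of Saa1 and of Saa2 were 94.8% identical, against 48.5% for Saa1 and Saa3. The upstream windows of Saa1, Saa2 and Orm2, without any bases inside the annotated gene, are shown to set the near copies Saa1 and Saa2 side by side and beside an inducible gene of another family. Saa1 is chr7:46742981-46743230 on the minus strand, Saa2 is chr7:46751583-46751789 on the plus strand, and Orm2 is chr4:63362199-63362448 on the plus strand. Capitals mark matches on either strand to TTNNGNAA, the core of a C/EBP site. Of all RefSeq windows of 250 bases, 36.8% held such a match.
Saa1 promoter: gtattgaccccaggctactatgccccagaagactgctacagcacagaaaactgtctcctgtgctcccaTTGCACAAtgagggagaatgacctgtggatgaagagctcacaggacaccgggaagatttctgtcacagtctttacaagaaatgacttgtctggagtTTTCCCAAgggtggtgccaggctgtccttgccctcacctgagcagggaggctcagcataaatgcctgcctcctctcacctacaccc
Saa2 promoter: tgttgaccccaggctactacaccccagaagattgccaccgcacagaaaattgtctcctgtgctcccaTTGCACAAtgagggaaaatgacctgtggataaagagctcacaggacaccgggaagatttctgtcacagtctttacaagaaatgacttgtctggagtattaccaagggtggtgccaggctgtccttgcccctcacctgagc
Orm2 promoter: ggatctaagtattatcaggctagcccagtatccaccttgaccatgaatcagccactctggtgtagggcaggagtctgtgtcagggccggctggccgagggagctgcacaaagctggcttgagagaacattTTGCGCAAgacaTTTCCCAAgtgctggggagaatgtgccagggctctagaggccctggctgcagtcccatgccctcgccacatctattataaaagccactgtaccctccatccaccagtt

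Within the 250-base windows, a match to TTNNGNAA was found in 7 of the 8 genes, Apcs being the exception. The NF-kB core, GGG and CC with 5 bases between them, was matched in Saa1, Saa2, Saa4 and Lcn2, and occurred in 45.8% of all windows. The STAT core TTCNNNGAA was matched in Apcs alone, and occurred in 7.02% of all windows. The motifs were searched on both strands, and matches to different motifs could overlap. These matches describe letters in a window and not bound sites.

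Total counts per library ran from 773499 to 21892416 with a median of 3712802. Some libraries stood apart from the rest. Small structural RNAs made up 0.667% to 0.753% of counts in the 4 FSTL3 libraries and at most 0.00957% in 18 of the other 19 libraries, LBP replicate 2 being at 0.0817%. Mitochondrial protein-coding genes made up 1.97% to 2.13% in the FSTL3 libraries, against at least 4.15% in the other 19. LBP replicate 2 had 0.211% of its counts in albumin, against 5.26% to 8.36% in the other 22 libraries, and a summed level of 3207 CPM of pancreatic acinar markers. Hepatocyte markers, all 18 of them above a mean of 1 CPM, summed to between 107771 and 163010 CPM over the libraries. In LBP replicate 2 the sum was 109142 CPM, but Apoa2 alone gave 61382 CPM of it. Results that rest on LBP replicate 2 are given with and without it, and the FSTL3 libraries are all of their group, so FSTL3 and that composition cannot be told apart.

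Levels are given in CPM, that is, counts per megaread of the TMM-scaled library size. Per kilobase of annotated exons, the median over 22 libraries (all but LBP replicate 2) was highest for Hpx (2960 CPM per kb) and Hp (2595 CPM per kb), followed by Orm1 (1410 CPM per kb), Saa1 (288 CPM per kb), Saa4 (259 CPM per kb), Apcs (161 CPM per kb) and Saa2 (139 CPM per kb). Orm2 (48.1 CPM per kb), Lcn2 (8.11 CPM per kb) and Saa3 (3.55 CPM per kb) were the lowest. Per kilobase of the coding transcript, Hp passed Hpx and Saa2 passed Saa4 and Apcs, so neighbours in this order are not separated.

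**Figure D1:**
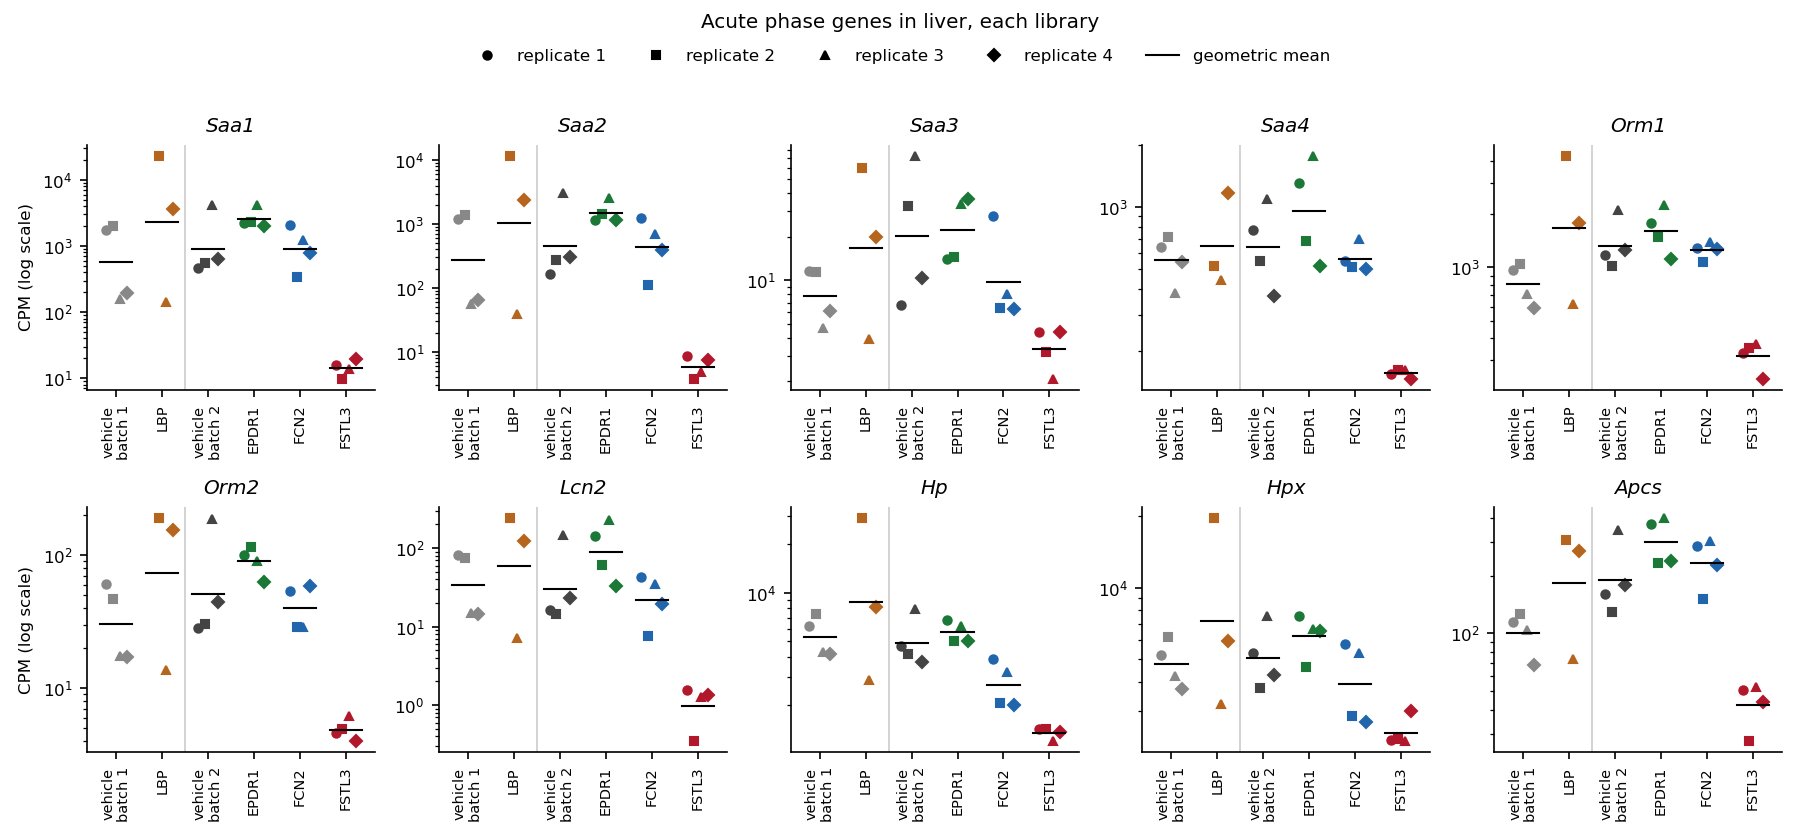
Level of each of the 10 genes in each of the 23 liver libraries, in CPM on a log axis, by group. Points are libraries, with the marker giving the replicate number, black bars are geometric means, and the grey line separates batch 1 from batch 2. The 4 FSTL3 libraries lie lowest for all genes but Saa3 and Hpx, and replicate 3 of the vehicle of batch 2 lies above the other vehicle libraries of that batch for all 10.

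The vehicle libraries differed widely among themselves. Saa1 stood at 1729, 1980, 159 and 196 CPM in replicates 1 to 4 of the vehicle of batch 1, and at 464, 548, 4205 and 645 CPM in those of batch 2. Replicates 1 and 2 were thus high in batch 1 and replicate 3 was high in batch 2. Lcn2 showed the same libraries as high, at 80.9, 75.3, 14.7 and 14.3 CPM in batch 1 and 16.4, 14.3, 146 and 23.3 CPM in batch 2.

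Over the 8 vehicle libraries, the highest value exceeded the lowest 55.4-fold for Saa2, 26.5-fold for Saa1, 15.5-fold for Saa3, 10.7-fold for Orm2 and 10.2-fold for Lcn2. The range was narrower for Apcs (5.08-fold), Orm1 (3.58-fold), Saa4 (2.94-fold), Hp (2.12-fold) and Hpx (2.03-fold). Hpx, Hp and Orm1, the most abundant of the 10 per kilobase, were all of narrow range. Saa4 (259 CPM per kb of exons) and Apcs (161 CPM per kb) were also of narrow range but less abundant than Saa1 (288 CPM per kb). Saa3 was high in replicate 2 as well as replicate 3 of the vehicle of batch 2, at 32.6 and 72.2 CPM against 6.72 and 10.4 CPM in replicates 1 and 4. In the comparison of the vehicles with each other, none of the 10 genes was called (edgeR quasi-likelihood, Benjamini-Hochberg adjusted p 0.0840 to 0.952), while 12.2% of all genes tested were. Apcs was at 160, 130, 347 and 179 CPM in batch 2 and at 115, 126, 104 and 68.2 CPM in batch 1. Every batch 2 vehicle library was above every one of batch 1, as for 15.9% of all genes tested, with a log2 difference of 0.99 ± 0.38 (SE) and an adjusted p of 0.0903. Saa3 had the largest log2 difference between the vehicles, 1.96 ± 0.73 (adjusted p = 0.0840), and the median over the 10 genes went from 0.52 to -0.07 without replicate 3 of batch 2.

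After FSTL3, all 10 acute phase genes fell against the vehicle of the same batch. In this comparison 16% of all genes tested fell, and 23.8% of all genes had every FSTL3 library below every vehicle library, as all 10 of these genes had. The median log2 difference was -2.65 over the 10 genes and 0.06 over all genes tested. Without replicate 3 of the vehicle, 9 of the 10 were called lower, beside 13.4% of all genes, and the median was -2.08. On the log2 scale Saa2, Saa1, Lcn2 and Orm2 fell most and Hpx fell least. Of these, Lcn2 passed the filter on low counts only through groups other than FSTL3. In bulk liver, fewer cells of a type and less RNA per cell cannot be told apart.

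Saa1 was at 15.9, 9.73, 13.8 and 19.3 CPM in the 4 FSTL3 libraries, against 464 to 4205 CPM in the vehicle. The 4 values lay within a narrow band, far below the lowest vehicle library. Saa1 fell by 6.64 ± 1.21 (SE) on the log2 scale, 99.6-fold (edgeR adjusted p = 0.000159). Saa2 was at 8.54, 3.74, 4.79 and 7.34 CPM against 164, 277, 3051 and 305 CPM, and fell by 7.28 ± 1.46 on the log2 scale (edgeR adjusted p = 0.000401). For both genes replicate 3 of the vehicle weighed on the size: without it the log2 differences were -5.23 ± 1.07 for Saa1 and -5.35 ± 1.24 for Saa2, with edgeR adjusted p of 0.000707 and 0.00208.

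Saa3, the form that macrophages and fat cells also make, was at 4.41, 3.21, 2.08 and 4.42 CPM after FSTL3. It fell by 3.08 ± 0.70 on the log2 scale against the vehicle of batch 2 (edgeR adjusted p = 0.00133), and by 2.31 ± 0.66 without replicate 3 of the vehicle. Saa4, the constitutive form, was at 154, 162, 162 and 146 CPM against 773, 544, 1088 and 370 CPM. Its fall was 2.15 ± 0.38 on the log2 scale, 4.45-fold (edgeR adjusted p = 0.000115). So within the cluster on chromosome 7 the constitutive gene fell too, and by fewer doublings than Saa1 and Saa2.

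Orm1 was at 329, 351, 370 and 234 CPM after FSTL3 and at 1167, 1018, 2105 and 1247 CPM in the vehicle, and fell by 2.11 ± 0.40 on the log2 scale (edgeR adjusted p = 0.000212). Orm2 was at 4.59, 4.95, 6.15 and 4.0 CPM against 28.1, 30.1, 185 and 44.4 CPM. It fell by 3.84 ± 0.68 on the log2 scale (edgeR adjusted p = 0.000107), and by 2.78 ± 0.57 without replicate 3 of the vehicle. Both genes of the pair fell, in every FSTL3 library.

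Lcn2 was at 1.56, 0.348, 1.27 and 1.33 CPM after FSTL3, which rest on 17, 4, 14 and 16 reads. In the vehicle it was at 16.4, 14.3, 146 and 23.3 CPM. It fell by 5.41 ± 1.06 on the log2 scale, 42.5-fold (edgeR adjusted p = 0.000330), and by 3.95 ± 0.94 without replicate 3 of the vehicle. With so few reads after FSTL3, Lcn2 passed the filter on low counts only through other groups. Its call is therefore no separate evidence, and the size of its fall is uncertain. Neutrophils store the Lcn2 protein. Of 14 neutrophil markers only 4 passed the filter on low counts, through groups other than FSTL3, so that their falls, beside 16% of all genes, are no separate evidence. The whole list summed to 1.27 to 2.17 CPM after FSTL3 and to 5.98 to 22 CPM in the vehicle. Over all libraries, reads of the neutrophil markers ran from 1 for Mpo and 2 for Ly6g to 313 for S100a8 and 435 for S100a9. The part of neutrophils in the Lcn2 result was not tested.

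Of the scavengers, Hp was at 1438, 1426, 1202 and 1379 CPM after FSTL3 against 4664, 4190, 7894 and 3729 CPM in the vehicle. It fell by 1.91 ± 0.45 on the log2 scale, 3.76-fold (edgeR adjusted p = 0.00184). Hpx was at 2267, 2277, 2240 and 3011 CPM against 5273, 3754, 7568 and 4264 CPM, and fell by 1.09 ± 0.40 on the log2 scale (edgeR adjusted p = 0.0347). The Hpx call was the weakest: without replicate 3 of the vehicle it was at -0.86 with an adjusted p of 0.125, and it was also lost without replicate 1 of the vehicle and without replicate 1, 2 or 3 of FSTL3 (adjusted p 0.0583 to 0.0727). Apcs, the pentraxin, was at 50.5, 27.4, 52.5 and 44.0 CPM against 160, 130, 347 and 179 CPM, a fall of 2.22 ± 0.38 on the log2 scale (edgeR adjusted p = 8.94e-05).

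All 10 genes are shorter than the median gene tested. Their annotated exons span 775 to 2623 bases, against a median of 4310 bases, and over all genes tested the FSTL3 difference rose with exon length (Spearman's rho 0.46 across genes, which are not independent replicates). With protein-coding nuclear genes alone in the fit, all 10 genes were called lower. The share of all genes called lower in that fit is not given here, so the count shows only how far it moved with the setting. The part of length and of the composition of the FSTL3 libraries in these falls was not tested.

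The FSTL3 libraries were also below the other protein groups of batch 2 and below the vehicle of batch 1. These comparisons share the FSTL3 libraries and so are not separate evidence. Against EPDR1 all 10 genes were lower, where 18% of all genes tested were called lower, and all 10 were without overlap, as were 23.3% of all genes. Against FCN2, 8 of the 10 were called lower, beside 18.4% of all genes, and 9 were without overlap, beside 23.5% of all genes. The exceptions were Hp, with a log2 difference of -1.04 ± 0.44 and an edgeR adjusted p of 0.0595, and Hpx, with -0.76 ± 0.40 and 0.126. Without LBP replicate 2 in the fit all 10 were called against FCN2, beside 26.8% of all genes called lower. Against the vehicle of batch 1, 8 of the 10 were called lower, beside 13.2% of all genes, and Saa3 (-1.11 ± 0.76, edgeR adjusted p = 0.280) and Hpx (-0.98 ± 0.40, edgeR adjusted p = 0.0664) were not.

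After EPDR1, none of the 10 genes was called against the vehicle of batch 2, and no gene of the whole table was (0 of 11969 by edgeR, 493 at an unadjusted p under 0.05, and 0 by DESeq2 and by limma-voom). A positive log2 difference was found in 9 of the 10, with a median of 0.50 against 0.01 over all genes. Saa1 was at 2239, 2316, 4113 and 2027 CPM, so that each library lay above the 3 lower vehicle libraries and below replicate 3 of the vehicle. Its log2 difference was 0.87 ± 0.95 with all vehicle libraries (approximate 95% interval -0.999 to 2.74) and 2.28 ± 1.02 without replicate 3, and neither was called (edgeR adjusted p of 1 in both).

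Lcn2 was at 144, 60.9, 230 and 32.7 CPM after EPDR1, also above the 3 lower vehicle libraries in every replicate. Its log2 difference was 1.26 ± 0.84 (approximate 95% interval -0.39 to 2.91), and 2.72 ± 0.87 without replicate 3 of the vehicle (edgeR adjusted p of 1). Orm2 was at 99.1, 115, 90.8 and 63.0 CPM, and the same omission moved its log2 difference from 0.38 ± 0.60 to 1.44 ± 0.56. Saa3 alone had a negative log2 difference, -0.30 ± 0.65, and it was 0.48 ± 0.64 without replicate 3 of the vehicle. The intervals given for Saa1 and Lcn2 span falls as well as rises, so the direction was not settled with these vehicle libraries. Neutrophil markers summed to 17.9 to 36.9 CPM after EPDR1 against 5.98 to 22 CPM in the vehicle, and their part in the Lcn2 values was not tested.

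After FCN2, none of the 10 genes was called either, beside 0.81% of all genes tested, and the signs depended on 1 vehicle library. With all libraries 9 of the 10 log2 differences were negative, with a median of -0.53. Without replicate 3 of the vehicle of batch 2, 7 of the 10 were positive and the median was 0.23. Saa1 was at 2046, 344, 1215 and 781 CPM after FCN2, spanning the vehicle libraries, and its log2 difference went from -0.42 ± 0.95 to 0.99 ± 0.97. Saa2 went from -0.64 ± 1.103 to 1.29 ± 1.12 and Lcn2 from -0.87 ± 0.85 to 0.58 ± 0.83, while Orm1, Orm2 and Saa4 also changed sign. Saa3, Hp and Hpx stayed negative and Apcs stayed positive.

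Hp came closest to a call after FCN2. It was at 3901, 2072, 3220 and 2000 CPM, with 3 of the 4 libraries below every vehicle library, and its log2 difference was -0.87 ± 0.44 (edgeR adjusted p = 0.313). With LBP replicate 2 left out of the shared fit, the difference was -0.87 ± 0.30 and the adjusted p was 0.0477, where 1235 of all 12244 genes tested were called lower. With that library and replicate 3 of the vehicle both left out, the Hp difference was -0.58 ± 0.28 (adjusted p = 0.156). Between EPDR1 and FCN2 none of the 10 was called, as none of all 11969 genes was (0 by edgeR, 1097 at an unadjusted p under 0.05), although all 10 log2 differences had EPDR1 higher. Hp, at 4989 CPM or more after EPDR1, and Orm2, at 63.0 CPM or more, lay above every FCN2 library, as did 4.63% of all genes tested. Their log2 differences were 1.04 ± 0.44 and 1.11 ± 0.60 (edgeR adjusted p of 0.473 and 0.580).

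After LBP, 1 of the 10 genes was called: Orm1 was higher than in the vehicle of batch 1, beside 6.73% of all genes tested that were. Orm1 was at 4255, 621 and 1783 CPM in LBP replicates 2, 3 and 4 and at 961, 1044, 710 and 588 CPM in the vehicle, so the groups overlapped. Its log2 difference was 1.43 ± 0.41 (edgeR adjusted p = 0.0363) and 0.55 ± 0.35 without replicate 2 (adjusted p = 0.523). Leaving out any one of the 4 vehicle libraries also ended the call (adjusted p 0.0571 to 0.105).

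The 3 LBP libraries disagreed with each other for nearly every one of these genes. Saa1 was at 23038 CPM in replicate 2, 142 CPM in replicate 3 and 3602 CPM in replicate 4, against 159 to 1980 CPM in the vehicle: replicates 2 and 4 lay above every vehicle library and replicate 3 below every one. The same split, 2 above all and 1 below all, held for Saa2, Saa3, Orm2, Lcn2 and Hp. Lcn2 was at 241, 7.16 and 125 CPM and Orm2 at 189, 13.7 and 155 CPM. Apcs, at 308, 73.9 and 270 CPM, had the same high pair, with replicate 3 above 1 vehicle library.

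All 10 log2 differences were positive after LBP, with a median of 1.44 against 0.00 over all genes. An unadjusted edgeR p under 0.05 was found for 7 of the 10, beside 2725 of all 11969 genes tested. Without replicate 2, which had little albumin, 9 were positive with a median of 0.72, and none was called. Saa1 moved from 3.14 ± 1.06 to 0.89 ± 1.14 and Hp from 1.28 ± 0.47 to 0.01 ± 0.36, and Hpx from 1.00 ± 0.43 to -0.07 ± 0.33. Leaving out replicate 3 instead gave calls for 7 of the 10 (Saa1, Saa2, Orm1, Orm2, Hp, Hpx and Apcs), beside 13.5% of all genes that were then called higher. Leaving out replicate 4 gave calls for Saa1, Orm1 and Hp, beside 13.7% of all genes. The acinar pancreas markers moved with the same libraries, at 3207, 21.5 and 956 CPM in replicates 2, 3 and 4 against 7.78 to 122 CPM in the vehicle, and their part in these values was not tested.

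The difference between LBP and its vehicle was then compared with the same quantity for each protein of batch 2. Against FSTL3 it was higher for all 10 genes, beside 31.7% of all genes that differed in either direction, from 2.09 ± 0.58 (log2) for Hpx to 10.08 ± 1.87 for Saa2 (edgeR adjusted p 0.000126 to 0.0100). Without LBP replicate 2 the call held for 9 of the 10, beside 18.5% of all genes called higher, and was lost for Hpx. Against EPDR1 and against FCN2 none of the 10 was called, as no gene of all 11969 was (0 by edgeR). An unadjusted edgeR p under 0.05 was found for 1 and 7 of the 10, beside 1605 and 2320 of all genes. Of the 10 differences, 9 were positive against EPDR1 (median 1.13) and 10 against FCN2 (median 2.24). These values include LBP replicate 2.

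**Figure D2:**
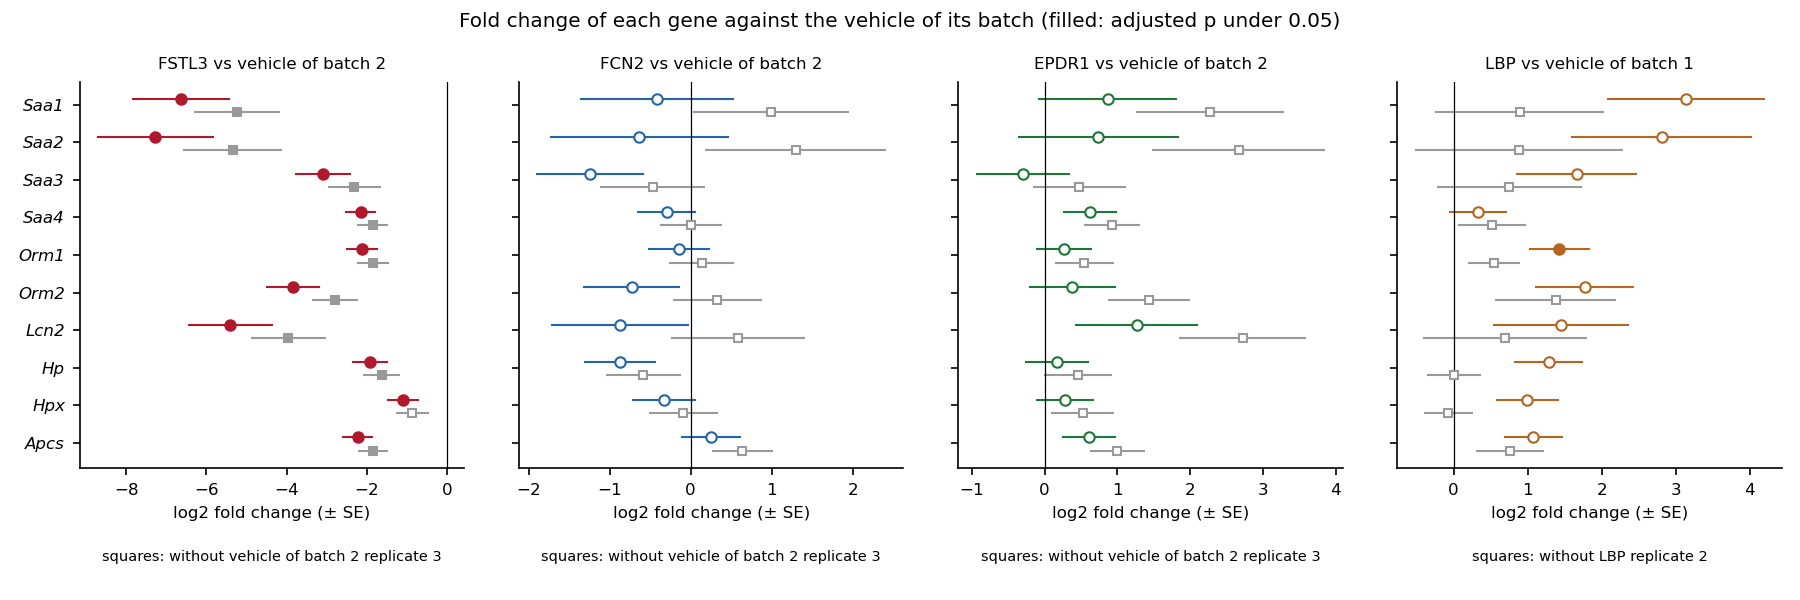
Log2 fold change of each gene (± SE) for each protein against the vehicle of its batch, with circles from all 23 libraries and grey squares from the fit without replicate 3 of the vehicle of batch 2, or without LBP replicate 2 in the LBP panel. Filled symbols have an edgeR adjusted p under 0.05. For FSTL3 every symbol lies to the left of 0, and for FCN2 the squares of Saa1, Saa2, Orm1, Orm2 and Lcn2 lie to the right of 0 where the circles lie to the left.

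Within groups, the other 9 genes followed Saa1 from library to library to differing degrees. Each library's departure from its group mean on the log2(CPM + 1) scale was taken over 22 libraries, leaving out LBP replicate 2. The departures of Saa2 followed those of Saa1 with a Pearson r of 0.996 (Spearman's rho 0.992), and those of Lcn2 with 0.934 (rho 0.929), followed by Hp (0.894), Orm2 (0.886), Apcs (0.827), Orm1 (0.810), Hpx (0.762) and Saa3 (0.754). Saa4, the constitutive form, had the lowest r to Saa1, 0.650 (rho 0.659), and without the 2 libraries farthest from the median of Saa1 it was 0.517. Pairs without Saa1 reached lower values, the lowest being 0.415 for Saa3 and Saa4 and 0.482 for Saa3 and Orm1. These are descriptions of 22 libraries that share their depth and scaling between genes, and Saa1 and Saa2 also share reads. LBP replicates 3 and 4 were the only LBP libraries left, so their departures are equal and opposite (-2.33 and 2.33 for Saa1). They hold 1 difference between libraries, which enters each r as 2 points.

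The size of the movement differed by gene. The standard deviation within groups on this scale was 1.86 for Saa2, 1.45 for Saa1, 1.34 for Lcn2 and 0.95 for both Orm2 and Saa3, against 0.56 for Saa4 and Apcs, 0.45 for Hp, 0.44 for Orm1 and 0.41 for Hpx. So Hp tracked Saa1 closely while moving through a far smaller range.

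**Figure D3:**
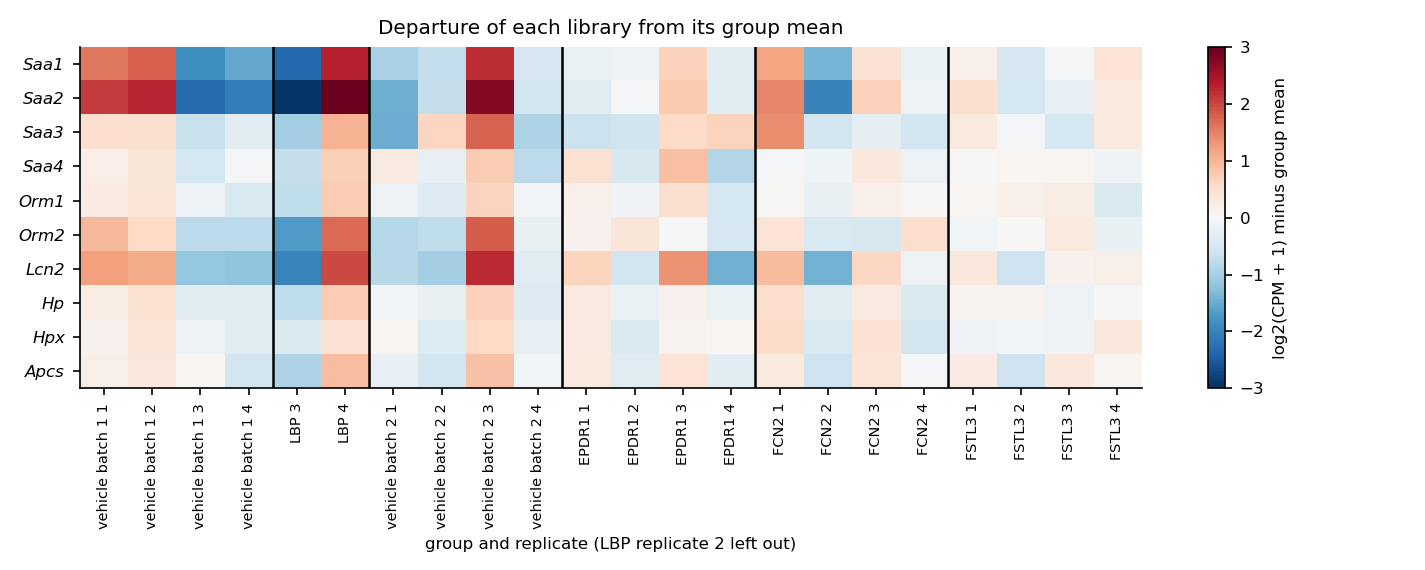
Departure of each library from its group mean, in log2(CPM + 1), for the 10 genes (rows) in 22 libraries (columns, grouped and numbered by replicate). Red is above and blue below the group mean. Columns of 1 colour show libraries in which the genes departed together, such as vehicle of batch 2 replicate 3 and both LBP libraries shown, with the strongest colours in Saa1, Saa2, Orm2 and Lcn2.

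Among 11424 other genes, all averaging 1 CPM or more and none carrying only a predicted name, those whose departures were most like Saa1 were Itih4 (Pearson r 0.869), Prg4 (0.854), Fgl1 (0.839), Cpb2 (0.836), Fas (0.828), Serpina3n (0.802), Zdhhc13 (0.801) and Entpd6 (0.791), over 22 libraries. For Lcn2 they were Prg4 (0.924), Serpina3n (0.885), Tifa (0.860), C4bp (0.860), Fgl1 (0.835), Fas (0.8292), Cpb2 (0.817) and Fam187b (0.817). Prg4, Fgl1, Cpb2, Fas and Serpina3n stood in both lists. Itih4 and Serpina3n encode an inter-alpha-trypsin inhibitor chain and a serine protease inhibitor, both known acute phase proteins. The likeness depended on the libraries used: with LBP replicate 2 included, r to Saa1 was 0.913 for Itih4 but 0.198 for Prg4, 0.116 for Fgl1 and -0.372 for Cpb2.

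The balance of Saa1 and Saa2 shifted with their level. Saa2 made up 21.7% (95% exact Clopper-Pearson interval 18.4% to 25.4%) of the reads of both in LBP replicate 3, where Saa1 was lowest outside FSTL3, and 42.1% (41.3% to 42.8%) in replicate 3 of the vehicle of batch 2. Within the vehicle of batch 1 it was 41.0% and 40.8% in the high replicates 1 and 2, and 25.7% and 24.9% in the low replicates 3 and 4. Over the within-group departures of 22 libraries, the Saa2 share followed log2 Saa1 CPM with a Pearson r of 0.93 (Spearman's rho 0.87), and 0.90 without the 2 libraries farthest from the median. Both axes hold the Saa1 reads, and intervals cover counting error only. The 4 FSTL3 libraries, at the lowest Saa1 levels, had shares of 34.96%, 27.7%, 25.7% and 27.6%, on 112 to 231 reads of Saa1 and 43 to 93 of Saa2, and LBP replicate 2, at the highest, had 33.6% (33.0% to 34.1%).

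**Figure D4:**
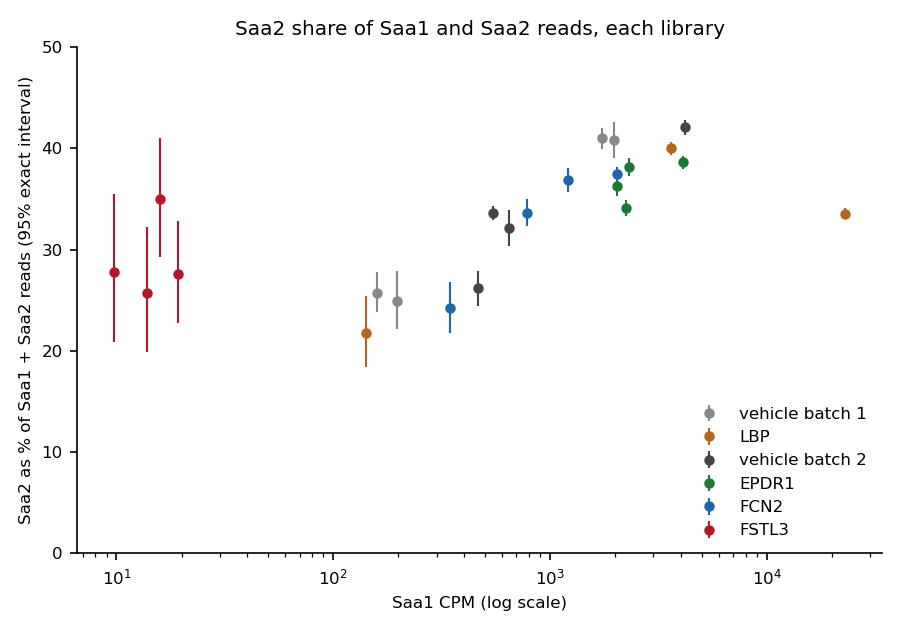
Saa2 reads as a percent of Saa1 and Saa2 reads (with the 95% exact binomial interval) against Saa1 CPM on a log axis, for each of the 23 libraries, coloured by group. Between about the level of LBP replicate 3 and that of the vehicle of batch 2 replicate 3 the share runs from 21.7% to 42.1%, and LBP replicate 2 at the far right lies at 33.6%.

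Other genes of the acute phase were read from lists chosen by their known roles. Of 29 other positive acute phase proteins, 10 fell after FSTL3 and none rose, beside 16% of all genes that fell and 23.2% that rose, with a median log2 difference of -0.67 against 0.06. Fgl1, a fibrinogen-like hepatokine, was at 134 ± 27.7 CPM (SD, n = 4) against 1217 ± 387 CPM and fell by 3.18 ± 0.44 on the log2 scale (edgeR adjusted p = 5.76e-06). Fgg, the fibrinogen gamma chain, fell by 1.42 ± 0.35 (adjusted p = 0.00259), Serpina10 fell by 1.04 ± 0.29 (0.00670) and Lrg1 fell by 1.66 ± 0.53 (0.0152). None of the 29 was called after EPDR1 or FCN2. After LBP 1 rose, Pigr, the receptor that carries immunoglobulin A into bile, by 1.39 ± 0.41 on the log2 scale (edgeR adjusted p = 0.0419), with an SD above its mean (3841 ± 4310 CPM, n = 3), beside 6.73% of all genes that rose. Pigr was highest in LBP replicate 2, and without it the log2 difference was -0.12 ± 0.15 (edgeR adjusted p = 0.797).

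Of 15 negative acute phase proteins, whose output falls in inflammation, 3 fell and none rose after FSTL3, beside 16% of all genes that fell and 23.2% that rose. Rbp4, the plasma carrier of retinol, fell by 1.45 ± 0.20 on the log2 scale (edgeR adjusted p = 5.57e-06), Fetub fell by 1.46 ± 0.34 (0.00173) and Apoa1, the main protein of high-density lipoprotein, fell by 1.17 ± 0.35 (0.00991). After FCN2, F12 fell by 0.74 ± 0.17 (edgeR adjusted p = 0.0433). After LBP, 2 of the 15 rose and 1 fell, beside 6.73% of all genes that rose and 0.969% that fell. Apoa2 and Trf, the plasma carrier of iron, were the 2 that rose, with SDs above their means in the LBP group (23377 ± 32916 and 3114 ± 4334 CPM, n = 3). Both were highest in LBP replicate 2. Without it neither was called: Apoa2 went from 2.53 ± 0.57 to 0.11 ± 0.19 on the log2 scale (edgeR adjusted p = 0.862) and Trf from 2.26 ± 0.58 to -0.08 ± 0.28 (0.954). F12, coagulation factor XII, was the 1 that fell, with -0.64 ± 0.19 (edgeR adjusted p = 0.0372) and -0.61 ± 0.16 without that library (0.0668).

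Among 28 tested genes of the cytokine and NF-kB control of the response, 6 rose and 2 fell after FSTL3, beside 23.2% of all genes that rose and 16% that fell. Myd88, the adaptor of interleukin-1 and Toll-like receptors, fell by 1.09 ± 0.27 on the log2 scale (edgeR adjusted p = 0.00273), and Socs3, a feedback inhibitor induced by STAT3, fell by 1.62 ± 0.43 (0.00455). Cebpb, a C/EBP factor of acute phase promoters, rose by 0.97 ± 0.26 (edgeR adjusted p = 0.00509), and Nr3c1, the glucocorticoid receptor, by 0.73 ± 0.14 (0.000330). After LBP 1 of the 28 rose and 2 fell, beside 6.73% and 0.969% of all genes. The gene that rose was Nfkbia, an inhibitor of NF-kB, by 2.04 ± 0.53 on the log2 scale (edgeR adjusted p = 0.0236), and without LBP replicate 2 it was at -0.09 ± 0.22 (0.913). Nfkbia and F12 after LBP were singled out after their values were seen. Cebpb and Cebpd were the 2 that fell, with log2 differences of -1.66 ± 0.30 and -1.59 ± 0.37 (edgeR adjusted p of 0.00865 and 0.0136), and both were also called without replicate 2 (0.00437 and 0.0454). Against the same vehicle of batch 1 they were lower in the vehicle of batch 2 too, with -2.79 ± 0.27 and -2.15 ± 0.32. None of the 28 was called after EPDR1 or FCN2.

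Of 15 tested binding partners and clearance receptors of the 10 proteins, 3 rose and 3 fell after FSTL3, beside 23.2% and 16% of all genes. Lrp1, the receptor that clears heme bound to hemopexin, rose from 443 ± 82.5 to 1080 ± 125 CPM (SD, n = 4), by 1.29 ± 0.22 on the log2 scale (edgeR adjusted p = 7.62e-05), and Tlr4 rose by 2.06 ± 0.43 (0.000536). The Tlr4 value rests on few reads: 386 over all libraries, with a mean of 2.24 CPM and at most 6.09 CPM, in FSTL3 replicate 4. Fth1, the ferritin heavy chain, fell by 1.71 ± 0.18 (edgeR adjusted p = 2.03e-07), and Marco, a scavenger receptor of macrophages, fell by 4.94 ± 0.90 (0.000156). Lrp1 was lower after LBP, with a log2 difference of -1.05 ± 0.24 (edgeR adjusted p = 0.0133) and of -0.95 ± 0.22 without replicate 2 (0.0315). Against the same vehicle of batch 1 it was lower in the vehicle of batch 2 as well, with -1.32 ± 0.22.

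Markers of cells other than hepatocytes were read beside the same 16% of all genes that fell and 23.2% that rose after FSTL3. Of 11 tested Kupffer cell and macrophage markers 5 fell and none rose, with sums of 198 to 215 CPM against 212 to 474 CPM in the vehicle. Lyz2 fell by 1.37 ± 0.28 on the log2 scale (edgeR adjusted p = 0.000505) and C1qc fell by 1.33 ± 0.30 (0.00125). Of 11 sinusoidal endothelial markers 4 rose and none fell, with sums of 560 to 676 CPM against 228 to 292 CPM, and Stab2 rose by 2.23 ± 0.26 (edgeR adjusted p = 5.92e-07). Of 18 hepatocyte markers 2 rose and 4 fell, with overlapping sums of 123944 to 136104 CPM and 127164 to 140554 CPM. The part of these cells in the fall of the 10 genes was not tested.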

How the data were processed

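Liver RNA was measured in 23 libraries of 6 groups. Per the labels' protocols, 800 ng of total RNA entered each library (KAPA Hyper-prep), sequenced as paired 50-base reads over 2 lanes of a HiSeq 4000. The authors deposited unnormalized read counts, 1 value for each gene and library. The submitters' processing notes name STAR 2.6.0c and the GRCm38 build. Per the file headers, exon reads were assigned by featureCounts 1.6.3 using the annotation of Ensembl 95. Its command line there names no option for strand, pairs or reads with several positions, so antisense genes are not separated and the treatment of reads shared by near copies rests on the program's defaults.

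Symbols were matched for 54723 of 54838 gene IDs. Genes were filtered with filterByExpr and scaled by TMM, and 1 edgeR 4.0.16 quasi-likelihood fit (R 4.3.3, robust) with a mean per group over all 23 libraries gave every comparison. P-values were adjusted by the Benjamini-Hochberg method over the 11969 genes tested, and a gene was called at an adjusted p under 0.05. Unless stated otherwise, ± is the SE of a log2 difference, and intervals of a difference are approximate, from the SE and a normal distribution. The fit was tested on simulated counts with the same dispersion for every gene and no outlying library. That test does not show how the fit behaves for genes as variable as Saa1 and Saa2. None of the 33 pairs of libraries checked agreed within sampling noise, and the remaining pairs were not checked. Total counts from 773499 to 21892416 limit Lcn2 and Saa3 most.

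The 10 genes and the other lists were chosen with earlier results of these data known, so a count on a list is not independent evidence. All 10 genes are described. Of each other list, the rule names up to 4 called genes of smallest p after FSTL3 and up to 2 in each other comparison, or the 2 most abundant where none was called; only the named genes that bear on the 10 are printed. Likeness was Pearson's r of departures from the group mean of log2(CPM + 1). Alternatives were DESeq2 1.42.0, limma 3.58.1 (voom), DESeq2 size factors, other filters, protein-coding nuclear genes alone, only the libraries compared, a replicate block and each library left out. Leaving out LBP replicate 2 and the third vehicle library of batch 2 together was added after seeing the data.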

Additional observations from a re-analysis of the deposited data

Results flagged for a closer look

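In 7 of the 50 sets of 4 libraries examined, 10 genes in 5 groups, 1 library stood far from the other 3 by the 95% critical value of Dixon's ratio. The nominal rate of about 1 in 20 is for independent sets of normally distributed values. These sets were unlogged CPM of genes that moved together, so their count cannot be set against that rate. In 4 of the 7 sets the far library was replicate 3 of the vehicle of batch 2. There Saa1 was at 4205 CPM where the next library was at 645 CPM, and Saa2 at 3051 CPM against 305 CPM. Orm2 was at 185 CPM against 44.4 CPM and Lcn2 at 146 CPM against 23.3 CPM. The others were Saa1 at 4113 CPM in EPDR1 replicate 3 (next 2316 CPM), Saa3 at 27.6 CPM in FCN2 replicate 1 (next 8.07 CPM) and Hpx at 3011 CPM in FSTL3 replicate 4 (next 2277 CPM).

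The response to LBP and the response to FSTL3, each against the vehicle of its batch, differed for all 10 genes. The test was of the difference itself (edgeR adjusted p 0.000126 to 0.0100), and 31.7% of all genes tested differed in either direction. Against the vehicle of its own batch, LBP had 1 of the 10 called and FSTL3 had all 10. The log2 differences, LBP minus FSTL3, were 9.78 for Saa1, 10.08 for Saa2, 4.74 for Saa3, 2.48 for Saa4, 3.53 for Orm1, 5.61 for Orm2, 6.86 for Lcn2, 3.19 for Hp, 2.09 for Hpx and 3.30 for Apcs. Without LBP replicate 2 the difference was called for 9 of the 10, all but Hpx, beside the share of all genes given above for that fit.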

How the results depend on the processing

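The fall of the 10 genes after FSTL3 was called for 10 under every change of tool, scaling and filter, for 9 or 10 when 1 library was left out, and for 8 against the vehicle of batch 1. Of the single-gene values tried for FSTL3, 183 kept direction and call, 7 lost the call and none changed sign. The count for LBP was the least stable. It was 1 as reported, 5 with DESeq2 (Saa1, Orm1, Orm2, Hp and Apcs), 0 with limma-voom, with no filter, with only the libraries compared and with LBP replicate 2 and vehicle of batch 2 replicate 3 both left out, and 0 to 7 leaving out 1 library. Leaving out 1 library gave 0 to 1 for FCN2 (Hp, without LBP replicate 2), 0 to 1 between the vehicles (Saa3), 7 to 10 for FSTL3 against FCN2, and, for the LBP response minus those of EPDR1 and FCN2, 0 to 1 and 0 to 6. DESeq2 also called 1 gene between the vehicles (Saa3) and 1 for LBP minus FCN2 (Hp). The fit without both libraries called 1 between EPDR1 and FCN2 (Hp). The share of all genes called also moved with the setting, so these counts show only how far the count of the 10 moved.

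Signs changed as follows, and the cause was not tested. After EPDR1, Saa3 was at 0.15 with limma-voom, 0.39 without both libraries, and from -0.63 to 0.48 leaving out 1. After FCN2, leaving out 1 library gave -0.91 to 0.99 for Saa1, -1.23 to 1.29 for Saa2, -0.50 to 0.00714 for Saa4, -0.26 to 0.13 for Orm1, -0.9998 to 0.33 for Orm2 and -1.24 to 0.58 for Lcn2, the highest in each without vehicle of batch 2 replicate 3. Without both libraries these were 0.99, 1.296, 0.00564, 0.13, 0.36 and 0.65. After LBP, leaving out 1 gave -0.27 to 0.57 for Saa4 and -0.0700 to 1.39 for Hpx, which was -0.0699 without both.

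Over all genes tested, calls after FCN2 went from 19 higher and 78 lower to 433 and 330 with DESeq2, and calls after LBP from 806 and 116 to 2 and 1 with limma-voom, and with no filter the median difference of all genes after FSTL3 was 0.26. Of 27 pairs of same-numbered libraries within batches, 10 had a correlation of departures over 0.1 (range -0.14 to 0.35, median 0.07). Libraries of unlike number were not set beside them, so whether same-numbered libraries are paired was not tested. With the replicate block the LBP count was 0 (Orm1 1.16, adjusted p = 0.161), FSTL3 against FCN2 was 9, and no other count changed. The block could not be fitted between the vehicles, which lie in different batches.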
